A study of Homo sapiens with 4 samples.

Results

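Described here are the genes that stood at least 2-fold away from both control lines in clone 20, a line of HCT116 cells that carries a stable CST5 transgene. A gene was taken if its deposited value lay above the 40th percentile of its own array on at least 2 of the 4 arrays, and if clone 20 differed from untransfected cells and from mock-transfected cells by at least 1 on the log2 scale, in the same direction. Of 24916 genes measured, 15131 passed the filter on dim signal, and 95 of them met the rule, 45 higher and 50 lower in clone 20. These are 0.297% and 0.330% of the genes that passed, or 0.628% for both directions together. The rule used these differences, so they are given as a description. Each line was measured on 1 array, no replicate error can be given, and no test was possible.

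HCT116 is an established human colon adenocarcinoma cell line. CST5 encodes cystatin D, which belongs to a family of secreted proteins that bind and block cysteine proteases of the cathepsin type. The title of the series also places the protein in the nucleus at sites where genes are transcribed, and the design asks which genes follow its expression. The arrays held RNA of clone 9 and clone 20, which express CST5 stably, of HCT116 cells transfected with a mock construct and of HCT116 cells that were not transfected. A stable clone also carries whatever set its founder cell apart, so CST5 and the choice of the clone cannot be told apart in clone 20. The sources used here do not say whether the mock line came from a single cell.

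The table identifies genes by Ensembl identifiers alone, and 0 of its 24916 identifiers were found in the reference table of gene symbols. The 95 genes are therefore described as groups and by 4 identifiers, without names, functions, chromosomes or sequences. The rows of CST5 and of the markers of colon epithelium were not identified, so the labels were not checked against the transgene or the cell type. A row of CST5 itself, the transfected gene, may be among the higher genes, the printed and the shared ones included, and would be counted there like any other.

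The 45 higher genes lay a median of 1.38 on the log2 scale above the mean of the controls, or 2.60-fold, with a range from 2.09-fold to 11.3-fold. The 50 lower genes lay a median of -1.26 from the control mean, a 2.40-fold difference, with a range from 2.01-fold to 6.38-fold. For comparison, 98% of all genes above the filter lay between -0.87 and 0.78 on the same scale, and their median was -0.01. Judged by the nearer of the controls, 11 of the higher genes reached 3-fold, 7 reached 4-fold and 1 reached 8-fold. Among the lower genes, 9 reached 3-fold, 3 reached 4-fold and 0 reached 8-fold.

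**Figure D1:**
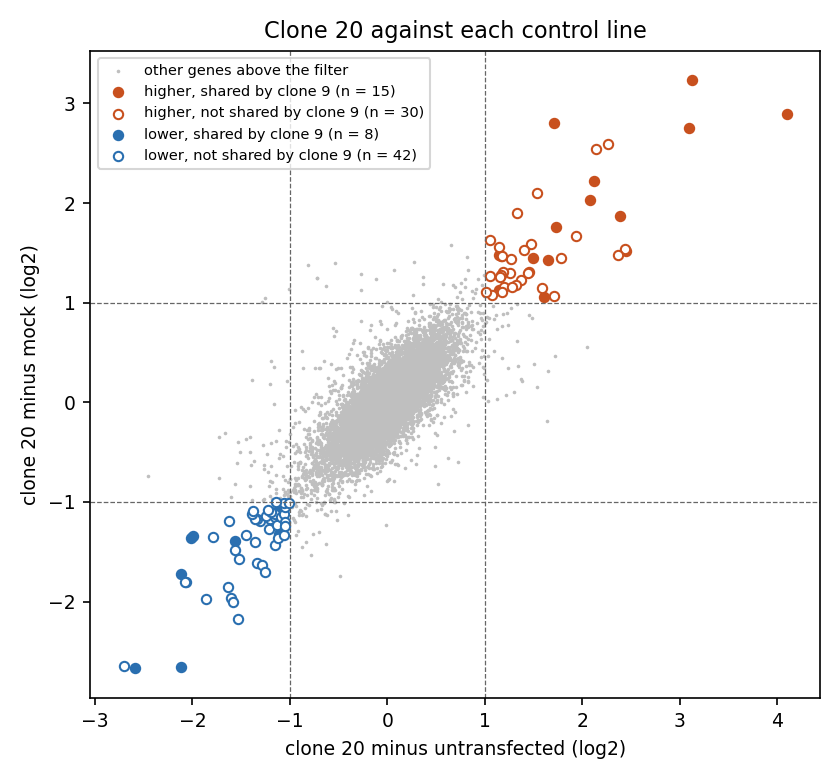
Each point is 1 of the 15131 genes above the filter, placed by its log2 difference between clone 20 and untransfected cells (horizontal) and between clone 20 and mock (vertical), with dashed lines at 2-fold. The 45 higher genes fill the upper right corner and the 50 lower genes the lower left, with filled symbols for the 15 and 8 genes shared by clone 9 and open symbols for the other 30 and 42.

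The gene furthest above both controls was ENSG00000170367, and whether this row is CST5 itself, the transfected gene, was not determined. Its value was 7.32 in clone 20, 6.48 in clone 9, 4.20 in untransfected cells and 4.09 in mock. Both clones lay above both controls, clone 20 8.73-fold above untransfected cells and 9.40-fold above mock. Clone 20 exceeded clone 9 by 1.79-fold at this gene. The largest mean difference among the higher genes, 11.3-fold, belonged to another gene of the shared group, whose controls lay further from each other.

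The gene furthest below both controls was ENSG00000131171. Its value was 3.89 in clone 20, 6.59 in clone 9, 6.60 in untransfected cells and 6.54 in mock. Clone 20 alone was low, 6.52-fold below untransfected cells and 6.25-fold below mock, while clone 9 lay between the controls, which were 0.06 apart on the log2 scale. The value of clone 20 was not far above the 40th percentile of its array, which was 3.48.

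Most of the 95 genes were not shared by clone 9. A gene was counted as shared if clone 9 too was at least 2-fold from both controls in the same direction. By this rule 15 of the 45 higher genes and 8 of the 50 lower genes were shared, and 30 and 42 were not, which is 75.8% of the 95. Clone 9 had 52 genes at least 2-fold higher than both controls and 67 lower, 0.344% and 0.443% of those tested, so the shared genes made up 28.8% and 11.9% of its lists, against 33.3% and 16.0% of those of clone 20. The clones were set against the same control arrays, which raises the number of shared genes, and nothing is read from it. The filter also acts on these shares. A gene dim in both controls passed it only if clone 9 was above the percentile as well. Without the filter 56 higher and 52 lower genes met the rule, and 85 were not shared, against 72 with it. The genes that the filter removed from the lists of clone 20 were all unshared.

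The 15 shared higher genes were further from the controls in clone 20 than the 30 others, with a median log2 difference of 1.99 against 1.35. A low value in the common control arrays enlarges the differences of both clones together, so nothing is read from this contrast. In 11 of the 15, clone 20 was further from the control mean than clone 9 was, and the median of clone 9 was 1.36. The 8 shared lower genes had a median of -1.68 in clone 20 and -1.85 in clone 9, with clone 20 the further one in 4 of the 8. Of the 7 higher genes at least 4-fold from both controls, 5 were shared, and of the 3 such lower genes 2 were. Nothing is read from these shares either, since the filter kept genes dim in both controls only where clone 9 was raised above the percentile too. The 42 lower genes that were not shared had a median of -1.25 in clone 20.

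The 72 genes that were not shared did not all leave clone 9 at the level of the controls. Clone 9 lay beyond both controls on the same side as clone 20, but by less than 2-fold from the nearer control, in 21 of the 30 higher and 23 of the 42 lower genes. It reached 1.5-fold from both controls in 7 and 9 of these. In 7 higher and 8 lower genes clone 9 lay between untransfected cells and mock. In 1 higher and 10 lower genes it lay beyond the controls on the opposite side, by less than 2-fold from the nearer control. Over all the genes not shared, clone 9 was a median of 0.30 above the control mean for the 30 higher genes and -0.19 from it for the 42 lower ones. Clone 9 was within 0.5 of the control mean in 15 and 27 of them. An extreme value in the common control arrays moves both clones to the same side. The share of all genes above the filter with clone 9 on the side of clone 20 was not computed. Nothing is therefore read from these counts and medians.

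**Figure D2:**
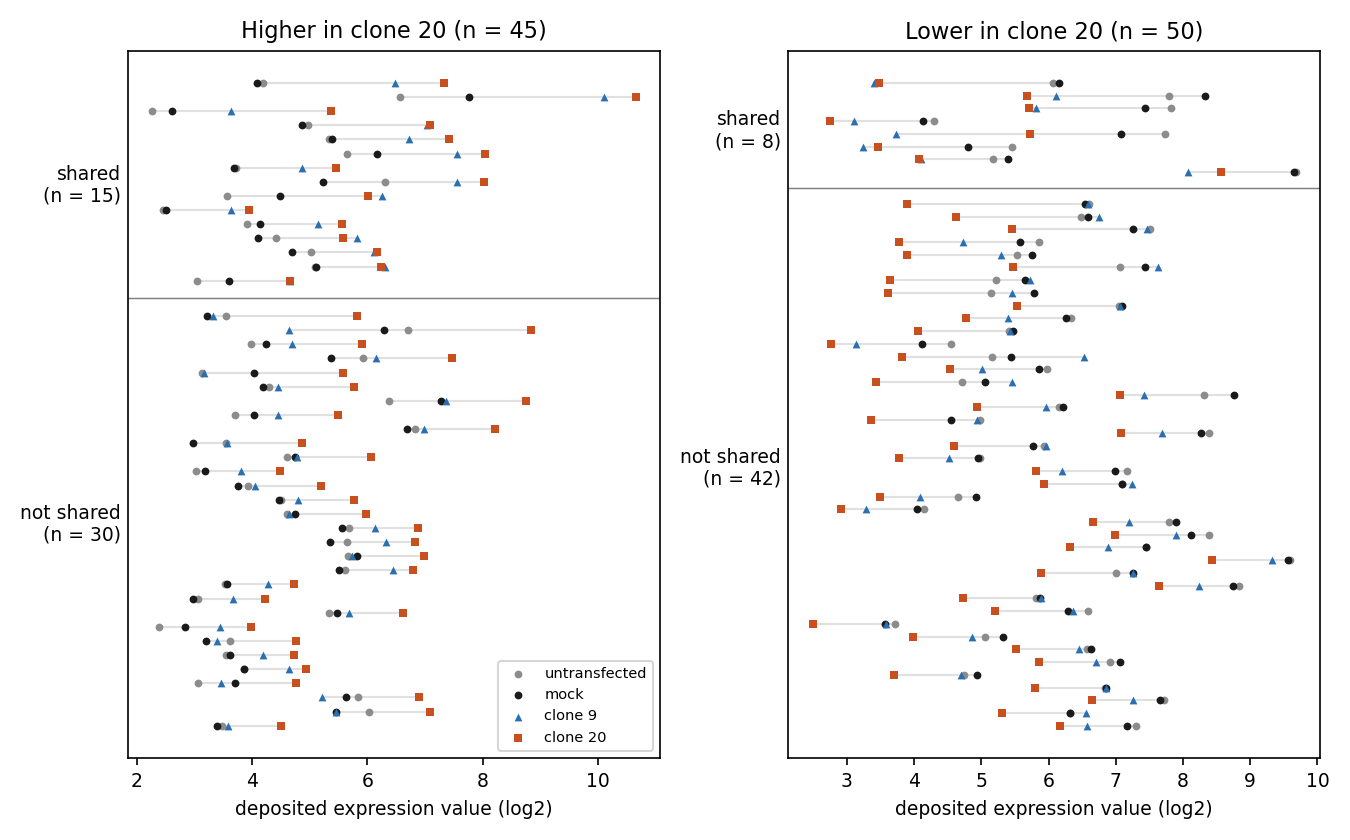
Deposited log2 expression value of each of the 95 genes on the 4 arrays, 1 line per gene, with the 45 higher genes on the left and the 50 lower genes on the right. Within each panel the genes shared by clone 9 stand above the grey divider, and genes are ordered by the difference of clone 20 from the nearer control. Below the divider the triangles of clone 9 mostly lie near the circles of the controls or part of the way to the squares of clone 20.

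In 2 genes the clones moved away from the controls in opposite directions, each by at least 2-fold from both. ENSG00000113140 had a value of 8.84 in clone 20, 6.70 in untransfected cells, 6.30 in mock and 4.65 in clone 9. Clone 20 was 4.42-fold above untransfected cells and 5.83-fold above mock, clone 9 was 3.61-fold below the control mean, and the clones were 18.3-fold apart. ENSG00000102678 went the other way, with 3.83 in clone 20, 5.16 in untransfected cells, 5.44 in mock and 6.53 in clone 9. Clone 20 was 2.52-fold below untransfected cells and 3.05-fold below mock, and clone 9 was 2.35-fold above the control mean.

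A stricter view asks where clone 20 was also at least 2-fold from clone 9, and thus from every other array. This held for 19 higher and 22 lower genes. Of the 19, 1 was a shared gene, in which clone 9 was raised as well but less so. The remaining 18 higher genes and all 22 lower ones were genes not shared by clone 9. The 19 had a median log2 difference from clone 9 of 1.32 and the 22 one of -1.39. Of the 72 genes not shared, 12 higher and 20 lower ones were less than 2-fold from clone 9, so for these the word describes which side of a 2-fold limit clone 9 fell on.

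The limit itself divides genes that hardly differ. Of the higher genes, those just inside it were 2.022-fold and 2.073-fold from the nearer control, and those just outside 1.989-fold and 1.985-fold. Of the lower genes, those just inside were 2.004-fold and 2.013-fold from the nearer control, and those just outside 1.995-fold and 1.980-fold. Between 1.9-fold and 2-fold lay 8 further higher genes and 20 further lower ones.

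The requirement of both controls removed many genes that were 2-fold from one of them. Clone 20 was at least 2-fold higher than mock in 84 genes and than untransfected cells in 80, 0.555% and 0.529% of those tested, and the 45 genes make up 53.6% and 56.2% of these. It was lower than mock in 91 genes and than untransfected cells in 118, 0.601% and 0.780%, of which the 50 make up 54.9% and 42.4%. Of the 39 genes 2-fold above mock alone, 19 were still at least 1.5-fold above untransfected cells and 12 were below them. Of the 35 genes 2-fold above untransfected cells alone, 17 were at least 1.5-fold above mock and 1 was below it. Of the 41 genes 2-fold below mock alone, 33 were at least 1.5-fold below untransfected cells and 0 were above them. Of the 68 genes 2-fold below untransfected cells alone, 41 were at least 1.5-fold below mock and 8 were above it.

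The controls were further apart in the chosen genes than in general. Mock and untransfected cells differed by a median of 0.22 on the log2 scale in the 45 higher genes and 0.16 in the 50 lower ones, against 0.11 over all genes above the filter. They were at least 0.5 apart in 11 higher genes (24.4%) and 4 lower genes (8.0%), compared with 2.91% of all genes above the filter. Expression level was not matched here. The standard deviation of mock minus untransfected cells was 0.267 in the dimmest of 10 equal level classes and 0.170 in the brightest. In 2 of the higher genes the controls were at least 2-fold apart.

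The higher and lower genes differed in expression level. The level of a gene, taken as its mean over the 4 arrays, had a median of 4.97 for the 45 higher genes and 5.98 for the 50 lower ones, beside 5.71 for all genes above the filter. Of the higher genes 18 lay in the lowest 25% of levels and 3 in the highest 25%, and of the lower genes 8 and 12 did. This level includes the values of clone 20 and the controls that the rule used. A dim gene also has less room to fall by 2-fold than to rise by it, so nothing is read from this contrast. In 5 higher genes neither control exceeded the 40th percentile of its array, and these passed the filter through the clones alone. In 7 lower genes clone 20 did not exceed it. For these 12 genes the difference may be larger or smaller than the fold given, since signal this dim may be background, which the table does not report.

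Clone 20 as a whole read slightly higher than the controls at low levels and slightly lower at high levels. Over 10 equal classes of the genes above the filter, the median of clone 20 minus the control mean fell from 0.15 in the dimmest class to -0.10 in class 9 and was -0.09 in class 10. Mock minus untransfected cells ran from -0.02 in the dimmest class to 0.04 in the brightest. The part of this trend in the counts of higher and lower genes was not tested. After each array was centred on its median, which moved the median of all genes from -0.01 to -0.11, the counts were 38 higher and 81 lower, so that higher genes made up 31.9% in place of 47.4%.

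**Figure D3:**
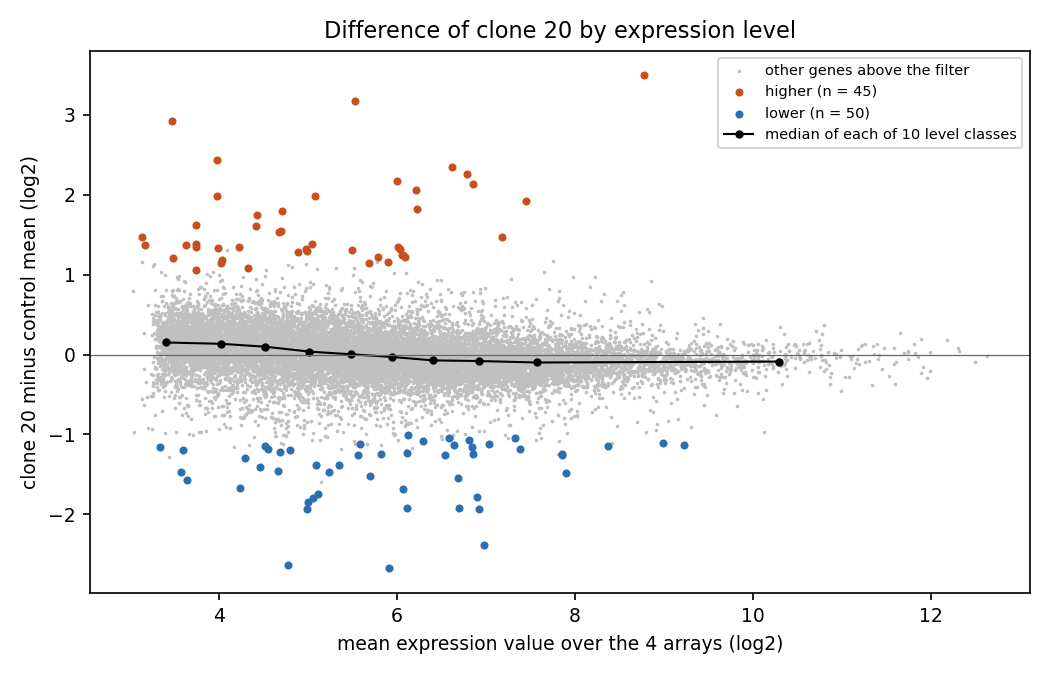
Log2 difference of clone 20 from the mean of the controls (vertical) against the mean log2 value over the 4 arrays (horizontal) for the 15131 genes above the filter. Orange and blue points are the 45 higher and 50 lower genes, and the black line joins the medians of 10 equal classes of level, each drawn at the middle of its range, from 0.15 in the dimmest class to -0.09 in the brightest.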

How the data were processed

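RNA of 4 HCT116 lines was hybridised to Affymetrix arrays, 1 array per line, after amplification and biotin labelling of 100 ng of total RNA, per the labels' protocols. The authors deposited 1 table of 24916 Ensembl gene identifiers by 4 arrays, read here as log2 expression because they span 1.03 to 12.7. The base of the logarithm is not stated, and every fold rests on it. The sources used here do not give the array model, background correction, summarisation or normalization. Sorted from lowest to highest, the arrays never differed by more than 0.222 at one position. Columns were mapped by the sample identifiers in the header.

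Differences between deposited values were computed in Python 3.11.15 with pandas 2.3.3, and other scalings with limma 3.58.1 in R 4.3.3. The rule was run on simulated data as a check of the code. No planted difference lay near the 2-fold limit, and the noise was of one size at all levels. The run therefore gives no error rate for these genes. Alternatives were other scalings, filters, fold limits and either control alone. With 4 arrays no error or test is available, and the number of arrays limits the precision. Members and lists were chosen with earlier results of these data known.

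The rule for printed genes was to name, with their values, the 20 genes per direction furthest from the nearer control, those of fixed lists, those near the limit and those furthest from clone 9. Without names, only 2 identifiers in each direction are given, namely the gene furthest from the nearer control and the unshared gene furthest from clone 9. For the same reason the 29 gene lists and genomic position were not analysed, and the rows of CST5 and of the cell type markers were not identified.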

Additional observations from a re-analysis of the deposited data

Results flagged for a closer look

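At 2 of the printed genes the clones lay on opposite sides of both controls. At ENSG00000113140 clone 20 minus clone 9 was 4.19 on the log2 scale, with clone 20 above and clone 9 below both controls. At ENSG00000102678 it was -2.71, with clone 20 below and clone 9 above both. With 1 array per line these differences between the clones were not tested.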

How the results depend on the processing

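The counts of 45 higher, 50 lower and 72 unshared genes stayed within 1.5 times under quantile normalization, cyclic loess, no filter and a filter over the 3 arrays of the comparison. Centring each array on its median gave 81 lower genes. Filtering at the 60th percentile, which by construction leaves fewer genes, gave 22 higher and 47 unshared genes. By construction, 1.5-fold gave 213 higher, 297 lower and 389 unshared genes, and 3-fold gave 11, 9 and 14. Also by construction, mock alone gave 84, 91 and 121, and untransfected cells alone 80, 118 and 142. Higher genes made up 47.4% of the 95 as deposited, 31.9% after centring, 42.0% with quantile normalization, 43.5% with cyclic loess and 34.4% with the stricter filter. Their share was 51.9% with no filter, 55.0% at 3-fold and 48.0% with mock alone. It was 44.4% with the filter over the 3 arrays, 41.8% at 1.5-fold and 40.4% with untransfected cells alone. Of the 95 genes, 88 remained after centring and 85 with quantile normalization, while cyclic loess kept 82 and the stricter filter 64. The 4 printed genes kept their direction under the 3 scalings. They were chosen for large differences, and the arrays never differed by more than 0.222 at one position, so a reversal was hardly possible. With either control alone the 4 genes kept their direction by construction, and the shift there follows from the gap between the controls. Each of these 20 values moved by less than 0.218, the standard deviation of mock minus untransfected cells over all genes above the filter. The planned medians of gene lists were not run, since genes could not be named. No paired analysis was possible because each line has a single array and no replicate number. The table gives no signal over background, so the order of dim genes is uncertain.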
